A study of Mus musculus with 14 samples.

Results

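The dual-specificity MAP kinase phosphatases examined here are the 8 genes *Dusp1*, *Dusp2*, *Dusp4*, *Dusp5*, *Dusp6*, *Dusp7*, *Dusp9* and *Dusp10*, chosen by name from the 23298 genes for which a value was deposited. The RNA of 14 mouse ES cell lines was sequenced, each line derived from a single blastocyst of a cross between C57BL/6J and CAST/EiJ mice. In BC lines the mother was C57BL/6J and in CB lines the mother was CAST/EiJ. There were 3 XX and 3 XY lines of each cross and 2 XO lines, with a single X chromosome and no Y, of the BC cross. All lines were untreated and were grown with serum and LIF on mouse embryonic fibroblasts, which were depleted before RNA was extracted. The CB XX lines are numbered here by the order in which their values are listed. The comparisons ask how XX, XY and XO lines differ, and whether a difference between the sexes depends on the direction of the cross.

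MAP kinases are switched on when both a threonine and a tyrosine of their activation loop are phosphorylated, and these phosphatases switch them off by removing both phosphates. Many of the phosphatase genes are themselves induced by the kinase that their product inactivates, which closes a negative feedback loop. In ES cells, signalling from autocrine FGF4 through its receptor, RAF, MEK and ERK prompts exit from self-renewal, and it is opposed by such feedback. *Dusp6*, *Dusp7* and *Dusp9* encode cytoplasmic phosphatases that prefer ERK. *Dusp1*, *Dusp2*, *Dusp4* and *Dusp5* encode inducible phosphatases of the nucleus, and *Dusp10* encodes one that prefers JNK and p38. *Dusp9* is the only one of the 8 genes on the X chromosome.

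RefSeq promoter sequences (build GRCm38.p6) were held for 6 of the 8 members. *Dusp6* is shown because its RNA differed between groups, and *Dusp1* and *Dusp5* because they carry elements known from genes induced by growth factors while their RNA passed no test. Each run holds the 250 bases before the start of transcription, and capitals mark every match to a searched motif:
Dusp6 (chr10:99262981-99263230, plus strand): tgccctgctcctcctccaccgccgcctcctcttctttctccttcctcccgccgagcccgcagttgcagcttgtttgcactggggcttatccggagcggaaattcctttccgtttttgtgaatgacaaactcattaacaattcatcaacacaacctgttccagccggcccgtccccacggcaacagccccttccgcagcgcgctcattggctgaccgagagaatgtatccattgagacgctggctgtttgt
Dusp1 (chr17:26508473-26508722, minus strand): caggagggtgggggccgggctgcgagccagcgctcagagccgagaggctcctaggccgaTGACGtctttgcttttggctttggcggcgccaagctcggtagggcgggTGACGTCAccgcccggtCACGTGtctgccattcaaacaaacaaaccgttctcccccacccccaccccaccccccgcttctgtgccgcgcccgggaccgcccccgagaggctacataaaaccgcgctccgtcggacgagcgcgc
Dusp5 (chr19:53528895-53529144, plus strand): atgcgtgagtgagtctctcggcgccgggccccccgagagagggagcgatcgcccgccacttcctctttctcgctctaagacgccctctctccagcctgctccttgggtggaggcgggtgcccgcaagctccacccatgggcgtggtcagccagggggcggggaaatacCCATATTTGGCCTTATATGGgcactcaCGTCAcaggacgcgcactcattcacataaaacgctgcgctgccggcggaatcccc
Both strands were searched for the ETS core CCGGAA, the cyclic AMP response element TGACGTCA (CRE) and its core TGACG, the AP-1 site TGANTCA, the E-box CACGTG, and the serum response element (CArG box). Each CRE holds 2 overlapping cores, 1 on either strand. In windows of the same length, these motifs lay in 12.0% (ETS), 1.55% (CRE), 17.8% (CRE core), 6.75% (AP-1), 6.02% (E-box) and 1.47% (CArG box) of 32851 promoters. The *Dusp1* window held 1 CRE, from 143 to 136 bases before the start, a further CRE core and 1 E-box. The *Dusp5* window held 2 adjoining CArG boxes, from 82 to 63 bases before the start, and a CRE core. The *Dusp2* window held 1 E-box. No match was found in the windows of *Dusp6*, *Dusp7* and *Dusp10*, which says only that these letters do not occur there.

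The values are a read signal per gene that the authors scaled to a common depth. Within a line the values rise in equal steps of about the size of 1 read, by which the depth ran from 11904000 to 69645000 reads. The lowest value of any member, that of *Dusp2* in CB XX 1, corresponds to 19 steps, so that every member was measured in every line. Differences are given on the scale log2(value + 5), which understates changes of low values, and were tested with limma. The p-values were adjusted by Benjamini and Hochberg over every gene tested, at an FDR of 0.05. All 8 members passed the filter on low values in each comparison. Of the Y-linked genes, *Uty* had values of 945 to 2088 in the BC XY lines and CB XY 1 but of only 19.6 and 45.4 in those labelled CB XY 2 and CB XY 3, against 12.8 to 195 in XX and XO lines. Comparisons that include these 2 lines were therefore repeated without them, which leaves CB XY 1 alone in its group, assumed to vary like the other groups. Over X-linked genes, the median deviation from the mean of all lines was -0.46 in CB XY 2 and -0.16 in CB XY 3 (log2). It was -0.41 in CB XY 1 and -0.15, -0.20 and -0.26 in BC XY lines. In XX lines it was 0.28 to 0.48, and in XO lines -0.24 and -0.26. The chromosome constitution of these 2 CB XY lines was not tested. None of 10 ES cell markers was at 0 in any line, and the lowest value was 368 (*Utf1*). The 15 fibroblast markers, none of them at 0 in any line, summed to 58303 to 125503 in BC XX lines and to 8355 to 30867 in all other lines. Of these markers 10 were called higher in BC XX than in BC XY lines, 8 than in BC XO and 9 than in CB XX lines. The part of feeder RNA in the members' values was not tested other than by a model with the marker level as a covariate. That level was 10.7 to 11.9 in BC XX lines and at most 10.2 in all other lines (mean log2). The model can therefore hardly separate it from membership of the BC XX group. In bulk RNA, fewer cells of a type and less RNA per cell cannot be told apart.

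Per kilobase of exon, the members fell into a group of 4 genes with high levels and a group of 4 with low ones. The mean level over 14 lines was 1151 ± 507 for *Dusp9*, 1148 ± 396 for *Dusp6*, 1092 ± 389 for *Dusp4* and 684 ± 189 for *Dusp1* (value per kb, SD, n = 14). *Dusp9*, *Dusp6* and *Dusp4* could not be ordered, since *Dusp9* exceeded *Dusp6* in 5 of 14 lines and *Dusp6* exceeded *Dusp4* in 8 of 14. *Dusp4* was above *Dusp1*, and *Dusp1* above *Dusp5*, in 14 of 14 lines. The mean levels of the lower group were 176 ± 57.5 for *Dusp5*, 108 ± 38.3 for *Dusp7*, 75.7 ± 13.8 for *Dusp10* and 56.1 ± 26.7 for *Dusp2* (value per kb, SD, n = 14). *Dusp5* exceeded *Dusp7* in 13 of 14 lines, *Dusp7* exceeded *Dusp10* in 11 and *Dusp10* exceeded *Dusp2* in 12. *Dusp6*, *Dusp9*, *Dusp4* and *Dusp1* thus supplied most of the RNA of these 8 genes in every group of lines.

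**Figure D1:**
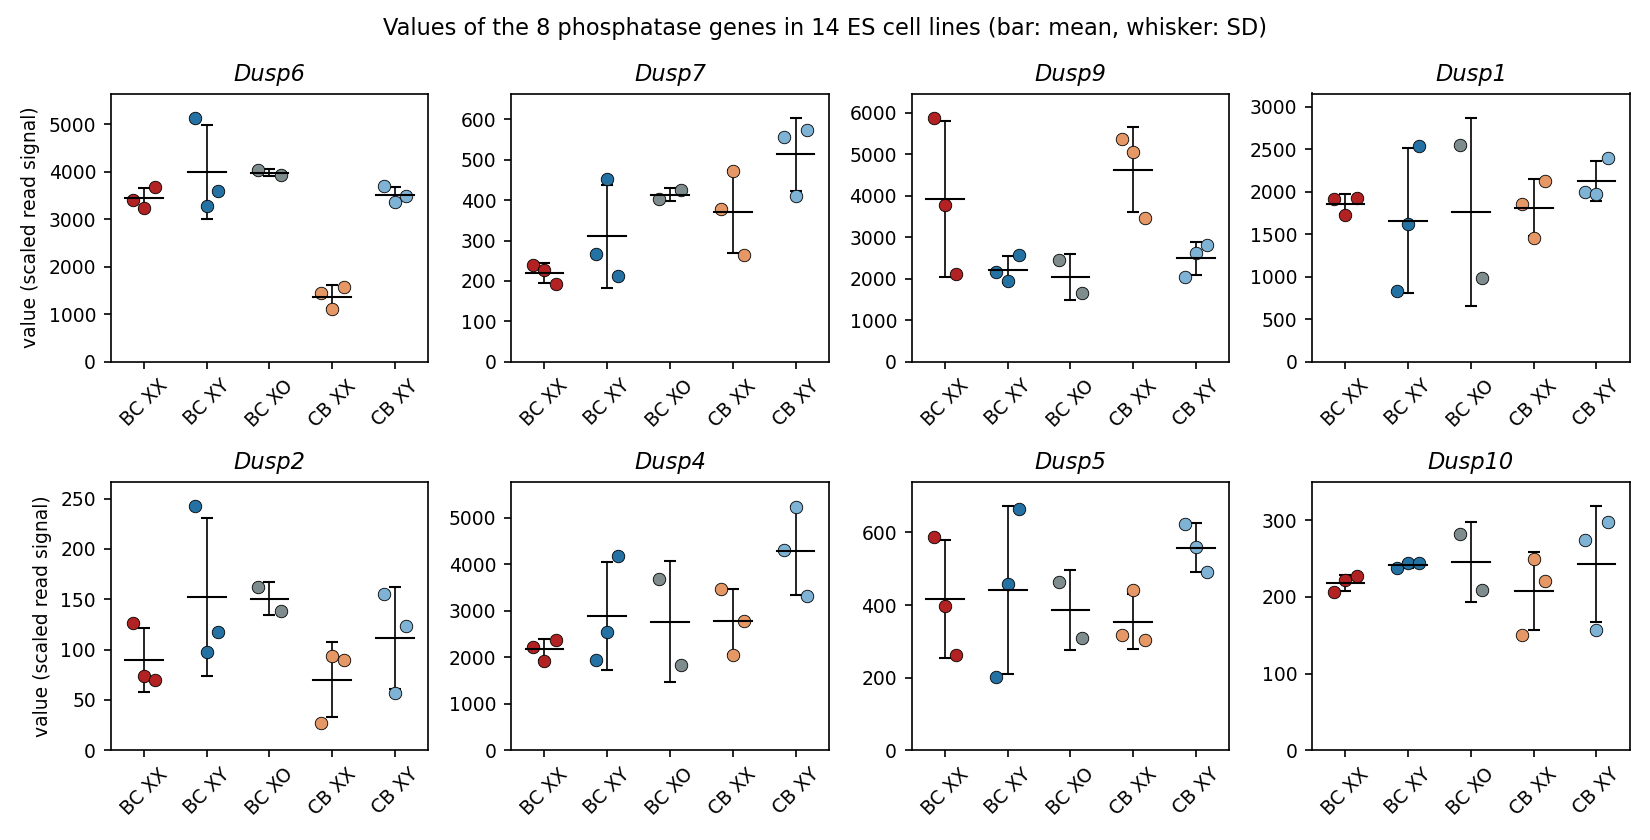
Value of each member (scaled read signal, linear axes from 0) in each of 14 ES cell lines, by group. Points are lines, bars the group means and whiskers the SD. The 3 CB XX lines lie below all other lines for *Dusp6* (1100 to 1567), and 5 of the 6 XX lines lie above all XY lines for *Dusp9*.

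In the comparison of the 6 XX with the 6 XY lines, 1 of the 8 members was called, against 5.21% of the 15311 genes tested. That member was the X-linked *Dusp9*, which was higher in XX lines. The median difference of the 8 members was -0.39 (log2), beside -0.03 over all genes tested, and 2 of the 8 differences were above 0. Within the crosses, 1 member was called in CB XX against CB XY lines, where 3.57% of 16261 genes were called, and it was *Dusp6*, lower in XX lines. In BC XX against BC XY lines limma called 0 members, where 5.70% of genes were called. An unadjusted p under 0.05 was found for 1 member (*Dusp9*) and for 3749 of the 16261 genes tested.

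**Figure D2:**
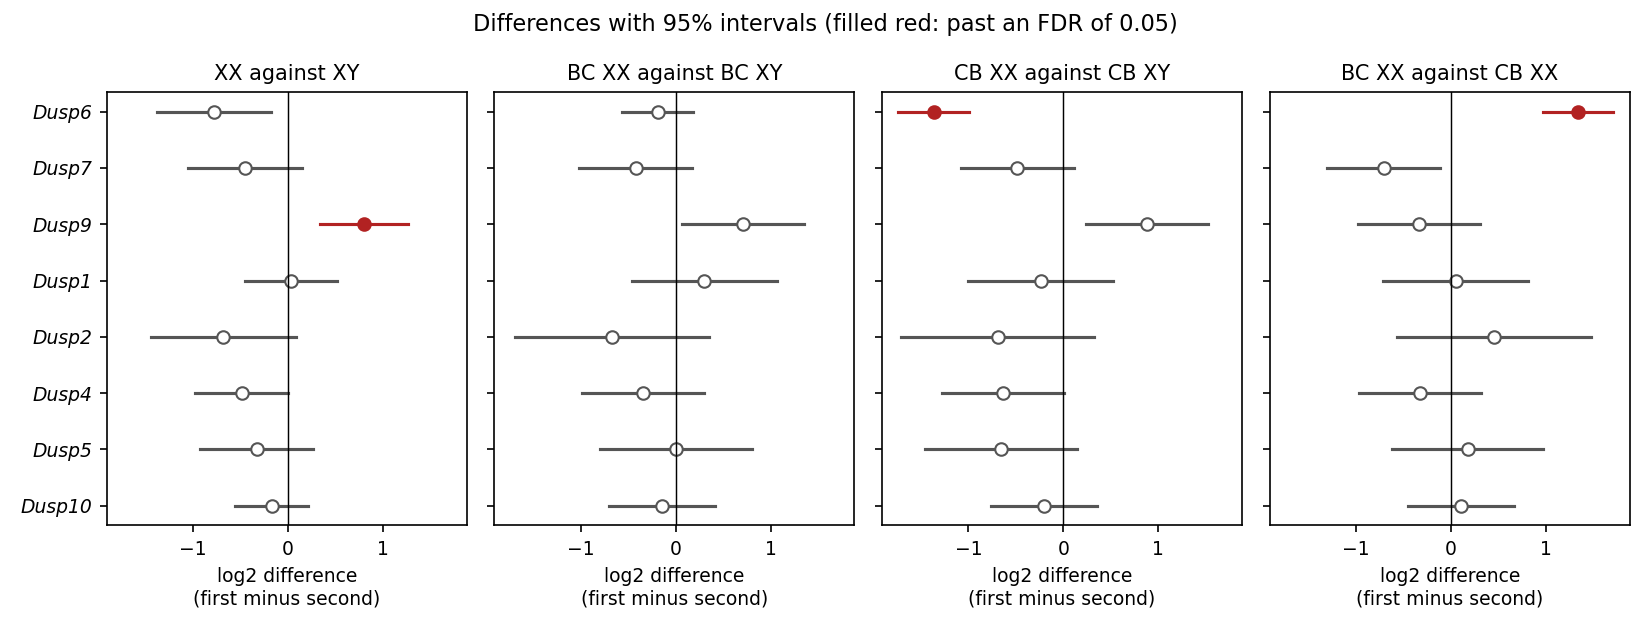
Log2 difference of each member (first group minus second, on the scale log2(value + 5)) with its 95% interval in 4 comparisons. Filled red points passed an FDR of 0.05. *Dusp6* stands at -1.37 in CB XX against CB XY and at 1.34 in BC XX against CB XX lines, and *Dusp9* at 0.80 in XX against XY lines.

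*Dusp6* encodes the cytoplasmic phosphatase that acts most selectively on ERK, and it is a classical feedback target of FGF signalling. The gene lies on chromosome 10 (mm9, chr10:98725865-98730122, plus strand). Its values were 1447, 1100 and 1567 in the CB XX lines and 3692, 3355 and 3485 in the lines labelled CB XY. The 3 CB XX lines were lower than every other line of the series. In the BC cross, *Dusp6* had values of 3409, 3243 and 3674 in XX lines, 5137, 3282 and 3586 in XY lines, and 4037 and 3934 in XO lines. BC XX and BC XY lines overlapped, and BC XX lines lay just below both XO lines.

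The difference between CB XX and CB XY lines was -1.37 ± 0.17 (log2, SE, 95% interval -1.74 to -0.997, limma adjusted p = 0.00266). It was called in all 10 other analyses of this comparison and in each fit that left out 1 line of either group. Without the lines labelled CB XY 2 and 3 it was -1.44 (limma adjusted p = 0.0315). In the BC cross the difference between XX and XY lines was -0.19 ± 0.17 (SE, 95% interval -0.56 to 0.18, limma adjusted p = 0.546). The interval of the BC difference therefore does not reach the CB estimate.

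The test of whether the sexes differ by another amount in the other cross gave 1.18 ± 0.25 for *Dusp6* (log2, SE, 95% interval 0.65 to 1.70). Its unadjusted p was 0.000269, but it did not pass the adjustment over 16261 genes (limma adjusted p = 0.125). In this test limma called 0 members, where 0.0738% of genes were called. *Dusp6* alone of the 8 had an unadjusted p under 0.05, as had 1471 of all 16261 genes. Over 14 fits that left out 1 line, the limma adjusted p ran up to 0.357. Only 1 of them passed, the one without BC XY 1, the line with the highest *Dusp6* value of the series. Without it the interaction was 1.37 (limma adjusted p = 0.0359), and without the 2 lines of doubtful label it was 1.25 (limma adjusted p = 0.398).

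The same CB XX lines were set against the BC XX lines, which have the same chromosome constitution from the reciprocal cross. *Dusp6* was 1.34 ± 0.17 higher in BC XX lines (log2, SE, 95% interval 0.97 to 1.71, limma adjusted p = 0.00136). It was the 1 member called, where 7.15% of genes were called. The 3 BC XX lines were all above the 3 CB XX lines. With the fibroblast marker level as a covariate the difference was 1.24, but the call was lost (limma adjusted p = 0.0830). These 2 comparisons share the CB XX lines. Of 8 primitive endoderm markers, 3 were called higher and 0 lower in BC XX than in CB XX lines. Their summed values went the other way, with 3682 to 4330 in BC XX and 4368 to 7215 in CB XX lines. In the same comparison 9 of 15 fibroblast markers were called higher in BC XX lines. Of 10 ES cell markers 1 was lower and 0 higher, and of 15 feedback inhibitors and targets of ERK 0 were called. Whether these marker differences bear on *Dusp6* was not tested.

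In the CB XX lines the median of chromosome 10 was shifted less than *Dusp6*, although CB XX 2 had the lowest median of all lines. The median deviation of the 727 tested genes of chromosome 10 from their mean over all lines was -0.04, -0.21 and -0.00 (log2) in CB XX 1, CB XX 2 and CB XX 3, whereas *Dusp6* itself deviated by -1.04, -1.43 and -0.92. With the chromosome's median taken off in each line, the difference between CB XX and CB XY lines was -1.24 (limma adjusted p = 0.00698). *Dusp6* had a spread within groups of 0.21 (SD of log2), below that of most genes and at the 21.9th percentile of the 16261 genes. Apart from CB XX lines and BC XY 1, its values ran only from 3243 to 4037.

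*Dusp9* encodes another cytoplasmic phosphatase that prefers ERK, and its X-linkage means that XX cells with both X chromosomes active carry a double dose. The gene lies at chrX:70884758-70888853 (mm9, plus strand). Its values were 5878, 3778 and 2107 in BC XX lines and 5369, 5053 and 3468 in CB XX lines. They were 2152, 1937 and 2563 in BC XY lines, 2040, 2611 and 2820 among lines labelled CB XY, and 2445 and 1660 in BC XO lines. All XX lines except BC XX 3 were above all XY and XO lines, and BC XX 3 lay within the range of the XY lines. *Xist*, read as a check of labels, had values of 3875, 4374 and 4058 in BC XX lines. It had 1723, 1445 and 3803 in CB XX lines, and 801 to 1650 in XY and XO lines. Whether both X chromosomes were active in each XX line was not tested.

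The 6 XX lines had a mean of 4275 ± 1412 and the 6 XY lines one of 2354 ± 358 (SD). The difference was 0.80 ± 0.22 (log2, SE, 95% interval 0.33 to 1.26, limma adjusted p = 0.0486), an interval that holds the value of 1 of an exact doubling. The call was close to the threshold. It was lost in 11 of the 12 fits that left out 1 line (limma adjusted p up to 0.112) and without the lines labelled CB XY 2 and 3 (0.90, adjusted p = 0.0934), with the same direction each time. Without BC XX 3 the difference was 0.98 (adjusted p = 0.00395). Within the crosses, the difference was 0.71 ± 0.30 in BC lines (SE, limma adjusted p = 0.175) and 0.88 ± 0.30 in CB lines (limma adjusted p = 0.128), neither of which passed. The CB call passed in 1 of 14 fits that left out 1 line (limma adjusted p = 0.0480), the one without BC XX 3, a line of the other cross that enters only through the pooled variance. Without the 2 lines of doubtful label it was 1.15 (limma adjusted p = 0.291). The interaction of sex and cross for *Dusp9* was -0.17, with a 95% interval from -1.08 to 0.74 (limma adjusted p = 0.945). It turned to 0.60 with the fibroblast marker level as a covariate and to 0.21 without BC XX 3 (limma adjusted p = 0.795 and 0.965). BC XX against CB XX lines gave -0.34 for *Dusp9* (limma adjusted p = 0.508), which turned to 0.26 with that covariate and to 0.05 without BC XX 3 (limma adjusted p = 0.909 and 0.956).

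Among the 553 X-linked genes tested, the median difference between XX and XY lines was 0.65 (log2), with quartiles of 0.36 and 0.87, beside -0.04 over 13829 autosomal genes. *Dusp9* stood at the 69.1st percentile of the X-linked genes, and 39.8% of them were called higher in XX lines. Without the lines labelled CB XY 2 and 3, the X-linked median was 0.62, *Dusp9* stood at the 76.2nd percentile and 21.7% were called higher. When the median of the X chromosome was taken off in each line, the *Dusp9* difference was 0.15 (limma adjusted p = 0.742). The low value in BC XX 3 was not shared by the chromosome, because the median deviation of X-linked genes was 0.35 in that line, against 0.42 and 0.34 in BC XX 1 and BC XX 2, while *Dusp9* deviated by -0.46. BC XX 3 also had the highest *Uty* value of the XX lines (195) and *Ddx3y*, another Y-linked gene, at 1024. In BC XX 1 and BC XX 2 *Uty* was 66.1 and 89.6, and *Ddx3y* was 328 and 486. The fibroblast markers summed to 58303, 95564 and 125503 in BC XX 1, BC XX 2 and BC XX 3. The source of the Y-linked RNA in these lines was not tested. With the fibroblast marker level as a covariate, the *Dusp9* difference between XX and XY lines was 1.14 (limma adjusted p = 0.0329), and no test was made for BC XX 3 by itself.

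Of 26 tested genes within 500 kb of *Dusp9*, 24 had a positive difference and 14 were called higher in XX lines, 0 lower, with a median of 0.77. The nearest called gene was *Slc6a8*, the creatine transporter, with 0.88 ± 0.17 (log2, SE, limma adjusted p = 0.0117), followed by *Bcap31*, a chaperone of the endoplasmic reticulum, with 1.11 ± 0.13 (limma adjusted p = 0.000784). *Pnck*, which borders *Dusp9*, had 0.70 ± 0.32 and was not called. The values above 2 within the window came from *Xlr* genes, near-identical copies among which the authors' counting could split reads, so that their values are uncertain. *Dusp9* thus lay among neighbours with differences of like size, and 13 of the 26 had a larger one. Without the 2 lines of doubtful label, 24 of 26 were again positive and 11 were called higher, with a median of 0.84.

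**Figure D3:**
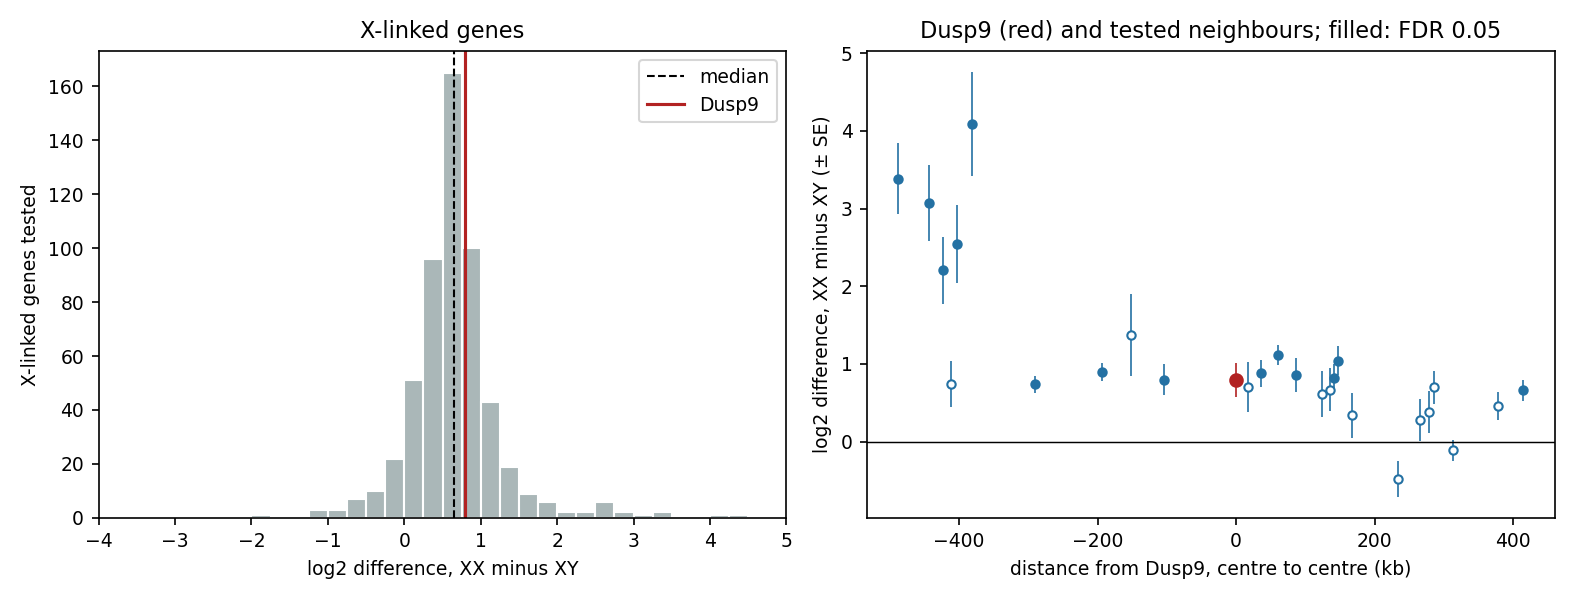
Left, the number of X-linked genes tested by their log2 difference (XX minus XY), with the median (0.65, dashed) and *Dusp9* (0.80, red). Right, the difference with its SE for *Dusp9* and 26 neighbours within 500 kb by distance, filled where the FDR of 0.05 was passed, most of them above 0.

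Set side by side per kilobase, *Dusp6* and *Dusp9* changed places between groups. The ratio of the *Dusp9* to the *Dusp6* level was 3.81, 4.72 and 2.27 in the CB XX lines. It was 1.77, 1.20 and 0.589 in the BC XX lines. It was below 1 in every line labelled XY or XO, from 0.430 to 0.831. *Dusp9* made up 66.6% to 77.7% of the summed level of *Dusp6*, *Dusp7* and *Dusp9* in CB XX lines, 36.1% to 62.6% in BC XX lines, and 28.4% to 42.2% in XY and XO lines.

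The summed level of these 3 genes differed less. It was 2302 ± 353 in CB XX, 2323 ± 115 in CB XY, 2737 ± 661 in BC XX, 2338 ± 346 in BC XY (value per kb, SD, n = 3 each) and 2143 and 2462 in the 2 BC XO lines. The ranges of all 5 groups overlapped, with the highest sum in BC XX 1 (3450) and the lowest in CB XX 3 (1913). No test was run on the sum.

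**Figure D4:**
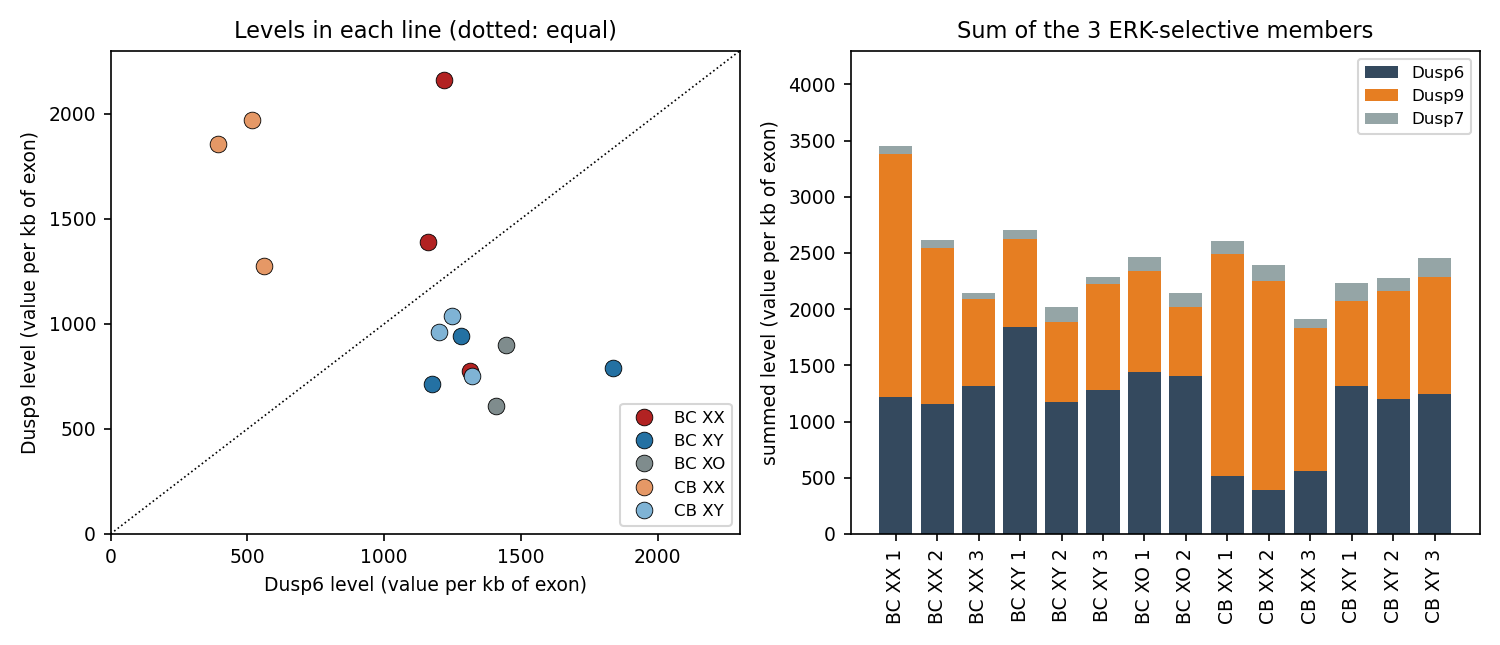
Left, level of *Dusp9* against *Dusp6* (value per kb of exon) in each of 14 lines, with the 3 CB XX lines far above the dotted line of equal levels and all XY and XO lines below it. Right, the stacked levels of *Dusp6*, *Dusp9* and *Dusp7* in each line, whose sums run from 1913 to 3450.

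*Dusp7*, the third of the cytoplasmic phosphatases that prefer ERK, made up at most 7.43% of that sum. Its values were 240, 228 and 192 in BC XX lines and 266, 453 and 212 in BC XY lines. They were 402 and 425 in BC XO lines, 378, 472 and 265 in CB XX lines, and 557, 410 and 574 in the lines labelled CB XY. All 3 BC XX lines lay below both XO lines and below all CB lines, but BC XX and BC XY lines overlapped.

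No *Dusp7* difference passed in the 8 comparisons. In BC XX against BC XO lines limma called 0 members, where 4.66% of genes were called. An unadjusted p under 0.05 was found for 3851 of the 16261 genes tested and for 2 of the 8 members. These members were *Dusp7*, at -0.90 ± 0.31 (SE, limma adjusted p = 0.0996), and *Dusp9*, at 0.84 ± 0.34 (SE, limma adjusted p = 0.148). In BC XX against CB XX lines the *Dusp7* difference was -0.71 ± 0.28 (SE, limma adjusted p = 0.125), and it was called only without CB XX 3 (-0.93, limma adjusted p = 0.0438). In BC XY against CB XY lines limma called 0 members, where 0.640% of genes were called. An unadjusted p under 0.05 was found for 3042 of the 16261 genes and, among the members, for *Dusp7* alone (-0.78 ± 0.28, SE, limma adjusted p = 0.155). Against CB XY 1 alone it was -0.91 (limma adjusted p = 0.442).

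BC XO and BC XY lines both have a single X chromosome, and 1 of 16261 genes (0.00615%) was called between them. Limma called 0 members, and 0 had an unadjusted p under 0.05, beside 242 of the 16261 genes. The *Dusp9* difference was -0.13, with a 95% interval from -0.85 to 0.59, and that of *Dusp6* was 0.02, with an interval from -0.39 to 0.44. In the same cross, BC XX against BC XY lines gave 0.71 for *Dusp9*, above that upper bound, but with an overlapping interval (0.07 to 1.35). For *Dusp6* they gave -0.19, which lies within the interval of XO against XY lines. The XO group holds only 2 lines.

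The nuclear inducible members passed no test in any comparison, and all 4 varied more between lines of a group than the median gene. The SD of log2 values within groups was 0.52 for *Dusp1*, 0.67 for *Dusp2*, 0.43 for *Dusp4* and 0.53 for *Dusp5*, against a median of 0.32 over 16261 genes. These lie at the 84.3rd, 93.9th, 73.0th and 85.0th percentiles.

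*Dusp1*, an immediate early gene whose product acts on p38, JNK and ERK, had values of 1910, 1719 and 1929 in BC XX lines and 1852, 1454 and 2121 in CB XX lines. It had 826, 1613 and 2531 in BC XY lines, 2543 and 980 in BC XO lines, and 1997, 1972 and 2391 in the lines labelled CB XY. The XX lines were the more even set, and all 6 lay within the range of the XY lines. The difference between XX and XY lines was 0.03 (95% interval -0.45 to 0.52, limma adjusted p = 0.948), and 0.17 without the lines labelled CB XY 2 and 3 (limma adjusted p = 0.782).

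*Dusp4*, whose product acts on ERK and JNK in the nucleus, was the most abundant of the nuclear members per kilobase. Its values were 2223, 1920 and 2361 in BC XX lines, 1935, 2540 and 4185 in BC XY lines, and 3685 and 1843 in BC XO lines. They were 3471, 2051 and 2789 in CB XX lines and 4318, 5236 and 3323 in the lines labelled CB XY. XX and XY lines overlapped in both crosses. The difference between XX and XY lines was -0.49 (95% interval -0.98 to -0.01, limma adjusted p = 0.211), and -0.34 without the lines labelled CB XY 2 and 3 (limma adjusted p = 0.509). Its chromosome, 8, had a raised median in CB XY 1 (0.32) and in CB XX 3 (0.27), and its lowest median in BC XX 3 (-0.19). CB XY 1 is the only CB XY line in the fit without CB XY 2 and 3. The part of these shifts in the *Dusp4* differences was not tested.

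*Dusp5*, whose nuclear product is specific for ERK, had values of 587, 397 and 263 in BC XX lines, 202, 457 and 663 in BC XY lines, and 463 and 309 in BC XO lines. It had 318, 441 and 304 in CB XX lines and 624, 560 and 491 in the lines labelled CB XY. The CB XX lines all lay below the lines labelled CB XY, but the difference of -0.66 ± 0.37 did not pass (SE, limma adjusted p = 0.367). It was -0.83 against CB XY 1 alone (limma adjusted p = 0.578). In the BC cross the XX lines lay within the range of the XY lines (-0.00, 95% interval -0.80 to 0.80).

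*Dusp2*, best known from activated immune cells, had the lowest level per kilobase. Its values were 127, 73.3 and 69.7 in BC XX, 242, 97.3 and 118 in BC XY, and 162 and 139 in BC XO lines. They were 27.0, 93.8 and 89.7 in CB XX lines and 156, 56.5 and 123 in the lines labelled CB XY. XX and XY lines overlapped in both crosses, and the difference between XX and XY lines was -0.68 (95% interval -1.45 to 0.08, limma adjusted p = 0.269). It was -0.93 without the lines labelled CB XY 2 and 3 (limma adjusted p = 0.233).

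*Dusp10*, which acts on JNK and p38, was the most even member over all lines. Its values ranged from 151 (CB XX 1) to 297 (CB XY 3), a 1.97-fold range, against 2.84-fold to 8.97-fold for the other members. They were 206, 222 and 227 in BC XX lines and 237, 244 and 244 in BC XY lines, which did not overlap, although the difference of -0.15 ± 0.26 did not pass (SE, limma adjusted p = 0.779). They were 282 and 209 in BC XO, 151, 250 and 221 in CB XX, and 275, 157 and 297 in the lines labelled CB XY. CB XX 1 held the lowest *Dusp10* value although the median of its chromosome, 1, was raised there (0.30). A gene on the opposite strand, *1700056E22Rik*, overlaps *Dusp10*, and whether the counting used strand is not given in the sources used here, so that the *Dusp10* values may include its reads.

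The pattern of each member over the 14 lines was set against 11321 other genes with a mean value of at least 100, by Pearson's r of log2(value + 5). The points share the grouping of the lines, and the genes are given as a description. *Dusp6* was most like *Emb* (0.95), *Sema3e* (0.95) and *Ppp4r4* (0.95). *Dusp9* was most like *Ndufa1* (0.97) and *Bex1* (0.94), both X-linked, and *Fkbp6* (0.91). *Dusp7* was most like *Mrpl37* (0.96) and *Lmf2* (0.95). *Dusp4* was most like *Gadd45b* (0.95), an immediate early stress gene, *Amotl2* (0.95) and *Ubn1* (0.93). *Dusp1* was most like *Cited2* (0.89), *Rcor1* (0.85) and *Man2b2* (0.85), and *Dusp5* was most like *Pld3* (0.90), *Ptprs* (0.86) and *Nfasc* (0.84). *Dusp2* was most like *Relt* (0.89), *Car2* (0.89) and *Igfbp3* (0.88), and *Dusp10* was most like *Tpbg* (0.90), *Igfbp4* (0.84) and *Msx2* (0.83).

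Other genes of the pathway were counted in XX against XY lines beside the 5.21% of all genes. The further MAP kinase phosphatases *Dusp16* and *Dusp8* were not called in any comparison (XX against XY, -0.43 and -0.07), and of the 11 atypical dual-specificity phosphatases tested 0 were called. Among 13 MAP kinases, not all of them known substrates of these phosphatases, 4 were lower and 0 higher. They were *Mapk11*, a p38 kinase, at -0.80 ± 0.17 (SE, limma adjusted p = 0.0177), *Mapk4* at -1.35 ± 0.30 (0.0212), *Mapk15* at -1.04 ± 0.27 (0.0419) and *Mapk3*, which encodes an ERK, at -0.54 ± 0.15 (0.0498). Without the lines labelled CB XY 2 and 3, where 2.01% of all genes were called, limma called 0 of the 13 MAP kinases, and these 4 had differences of -0.71, -1.20, -0.95 and -0.65 (limma adjusted p = 0.0970, 0.110, 0.157 and 0.0612). Of 7 MAP kinase kinases 0 were called with or without these lines.

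From the FGF receptor to RAF, 1 of 23 genes was higher, the X-linked RAF gene *Araf* (0.65 ± 0.12, SE, limma adjusted p = 0.00755), and 0 were lower. Among X-linked genes 39.8% were called higher in this comparison, and their median difference was 0.65. Of 15 feedback inhibitors and targets of ERK, 1 was lower, the inhibitor *Spry1* (-0.64 ± 0.17, SE, limma adjusted p = 0.0452). Without the 2 lines of doubtful label *Araf* was still called (0.61, limma adjusted p = 0.0458) and *Spry1* was not (-0.50, limma adjusted p = 0.184). Of 15 immediate early genes 0 were called. Among 10 ES cell markers 0 were called, among 15 fibroblast markers 1 was higher (0 without those lines) and among 8 primitive endoderm markers 1 was lower (1 without them).

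In the CB cross, in which *Dusp6* was lower in XX lines, the list of feedback inhibitors and targets had 1 of 15 genes lower, *Il17rd*, an inhibitor of FGF signalling, at -0.81 ± 0.20 (SE, limma adjusted p = 0.0422), beside 3.57% of all genes. Its median was -0.34, against -0.02 over all genes. *Fgf5*, an FGF ligand that rises as cells leave the naive state, was lower in CB XX lines (-1.74 ± 0.45, SE, limma adjusted p = 0.0468). *Araf* was higher, with 0.75 ± 0.16 (SE, limma adjusted p = 0.0230). Among X-linked genes 33.7% were called higher there, and their median difference was 0.73. *Mapk4* (-1.98 ± 0.39, SE, limma adjusted p = 0.0155) and *Mapk11* (-0.92 ± 0.23, SE, limma adjusted p = 0.0458) were lower. Of 8 primitive endoderm markers, 1 was lower. Set against CB XY 1 alone, where 0.815% of all genes were called, none of these 5 named pathway genes passed, with *Il17rd* at -0.66, *Fgf5* at -2.39, *Araf* at 0.62, *Mapk4* at -1.86 and *Mapk11* at -0.83 (limma adjusted p = 0.389, 0.104, 0.291, 0.195 and 0.357). In the BC cross, 1 of the 15 feedback inhibitors and targets was higher in XX lines, *Ier3*, an early response gene, at 1.24 ± 0.31 (SE, limma adjusted p = 0.0332), in lines in which fibroblast markers were also higher. There 0 MAP kinases and 0 genes from the FGF receptor to RAF were called.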

How the data were processed

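Stranded libraries of total RNA from 14 ES cell lines were aligned by the authors to mm9 with TopHat2 and quantified with Cuffdiff, per the labels. The authors deposited 1 scaled read signal per gene and line, not raw counts, so that tests for counts were not used. Sums of a line ran from 28150946 to 30657803. Values were used as log2(value + 5) in limma 3.58.1 (R 4.3.3; trended variance, Benjamini-Hochberg adjustment), for genes that reached 10 in a number of lines equal to the size of the smallest group. XX against XY was fitted on 12 lines without the cross, and the other comparisons in 1 model of 5 groups. The design had foreseen counts, and this test took their place. Left out were 15 genes listed at 0 in a whole group and at 100 or more elsewhere. Positions and exon lengths came from GENCODE M1 (NCBIM37), promoters from RefSeq (GRCm38.p6). The steps were tested on simulated data. Python 3.11.15 was used for tables. The lines come from separate blastocysts. No pairing by the labels' line numbers was seen. The authors prepared the libraries in batches, but the batch of each line is not given, so that its effect could not be tested.

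The members and the gene lists were chosen with earlier results of these data known. Named are all 8 members, up to 6 called genes per list, *Uty* and *Ddx3y* as a check of labels, up to 3 genes most like each member (1 is not reported here), and neighbours of *Dusp9*. *Dusp8* and *Dusp16*, and the lowest ES cell marker, are named beyond the called genes of the lists, after their values were seen, and the promoters of *Dusp1* and *Dusp5* were chosen after the motif search. Each alternative altered a single choice (pseudocount, filter, scaling, covariates, lines), except the replicate block, which also dropped the CB XX lines. Taking off the chromosome's median, leaving out the CB XX lines, and repeating lists and X-linked genes without the lines labelled CB XY 2 and 3 were added after the data were seen.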

Additional observations from a re-analysis of the deposited data

Results flagged for a closer look

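Over the 6 XX and the 6 XY lines, the highest and lowest value of each of the 8 members was checked for a gap to its nearest neighbour that is large against the whole range, in 16 groups in all. Chance gives such a gap in about 1 in 20 groups. It was found once, for *Dusp6* in BC XY 1, at 5137 among XY lines that otherwise ran from 3282 to 3692, a gap of 0.779 of the range. Without this line the interaction of sex and cross for *Dusp6* passed (1.37, limma adjusted p = 0.0359), alone of 14 fits that left out 1 line. The line was flagged by the same *Dusp6* values, so that this fit is no independent test.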

How the results depend on the processing

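The number of members called in XX against XY lines was 1, and it was 0 with a pseudocount of 1, with no filter on low values, without the lines labelled CB XY 2 and 3, and with the median of the chromosome taken off. It was 2 (*Dusp9* and *Dusp6*) with the cross as a covariate and with the fibroblast marker level as a covariate, and 0 to 1 over the fits without 1 line each. The *Dusp9* difference was 0.80 with a pseudocount of 1 (limma adjusted p = 0.0502), 0.80 with no filter (0.0687), 0.90 without the 2 lines of doubtful label (0.0934), and 0.15 with the chromosome's median taken off, an alternative that removes the X-wide difference by construction. It ran from 0.69 to 0.98 without 1 line each. In CB XX against CB XY lines 1 to 2 members were called without 1 line each, in BC XX against CB XX lines 1 to 2, and 0 with the fibroblast covariate, and in the interaction 0 to 1. The causes of these changes were not tested. *Dusp6* in XX against XY lines was -0.78 (limma adjusted p = 0.122), -0.78 with the cross as a covariate (0.0264) and -1.39 with the fibroblast covariate (0.0247). No called difference of a member changed its sign. With the replicate number as a block, on the 11 lines that carry a number, 0 members were called in the 4 comparisons it allows, as without it. The count over all genes in BC XX against BC XO lines was 758 on all 14 lines, 1095 on these 11 without the block (a fit added after the data were seen) and 332 with it. In BC XY against CB XY lines it was 104, 392 and 368. Same-numbered lines correlated at -0.17, 0.25 and -0.05 between BC XX and BC XY. They correlated at 0.27, 0.02 and -0.22 between BC XY and CB XY, and at 0.01, 0.03 and 0.25 between BC XX and CB XY. Lines of unlike number reached 0.40, so that no pairing by number was seen. The count tests planned as alternatives were not run, because the values are scaled.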
